A study of Homo sapiens with 24 samples.

Results

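NEDD9, IL13RA2, FAM225A, LINC01978 and SMIM10 are 5 genes that were nearly silent in untreated HCT116 cells and transcribed in their oxaliplatin-resistant derivative, HCT116 oxpl-R. They were chosen by symbol, with the untreated levels in both lines known, from 37967 genes in the tables used here, so the untreated contrast between the lines describes them and tests nothing. All 5 were found: NEDD9, IL13RA2, FAM225A and LINC01978 in a table of estimated counts for 33113 genes, and SMIM10 in a second, length-scaled table. NEDD9 encodes a scaffold protein of the CAS family, which docks focal adhesion and Src family kinases at sites of integrin adhesion and also takes part in mitotic entry. IL13RA2 encodes a receptor chain that binds interleukin-13 with high affinity and has a short cytoplasmic tail; it is also listed among cancer/testis antigens, genes normally transcribed mainly in the testis. FAM225A and LINC01978 give long non-coding RNAs, and SMIM10 encodes a small integral membrane protein.

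HCT116 is a human colorectal carcinoma line, and HCT116 oxpl-R was derived from it by repeated pulses of oxaliplatin, a platinum drug that forms adducts on DNA; it is a single derived line, so a difference between the lines is one between these 2 populations. Both lines carry a TetOn-E1A cassette, in which doxycycline induces the adenoviral E1A protein, and the control cells carry it as well. RNA was sequenced from 8 groups of 3 biological replicates, 24 samples in all. In each line the groups were untreated cells, cells with E1A induced by doxycycline (0.5 µg/mL), cells given oxaliplatin (25 µM, 24 h), and cells given doxycycline 3 h ahead of the same oxaliplatin treatment. No group had doxycycline in cells without the cassette, so effects named E1A below cannot be told apart from those of doxycycline itself. Estimated counts summed to between 24838095 and 37927720 per sample, and levels below are counts normalized for library size over the 24 samples unless raw counts are named. Where a sample had no count, a true level of up to 3 counts was possible, and such limits cover counting error only. Epithelial markers of the labelled cell type were found unevenly. KRT8, the most abundant of 11 such markers in the tables, had a mean of 142200 normalized counts in HCT116 and 144900 in HCT116 oxpl-R. CDX1 was at 3 counts or fewer in every HCT116 oxpl-R sample. Of the markers tested between the lines, 1 of 10 untreated and 3 of 11 with oxaliplatin were at 3 counts or fewer in both lines.

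The genes lie on different chromosomes, apart from IL13RA2 and SMIM10. In GRCh38 (GENCODE 44), NEDD9 spans chr6:11183298-11382348 on the minus strand, IL13RA2 chrX:115003975-115019977 on the minus strand, FAM225A chr9:113113042-113119928 on the plus strand, LINC01978 chr17:79919310-79926018 on the plus strand and SMIM10 chrX:134990991-134992473 on the plus strand. Windows around transcription starts (RefSeq, GRCh38.p14) were at hand for 4 of the 5 genes, with 3 for NEDD9. The reference set used here held none for IL13RA2. FAM225A is shown beside FAM225B, a divergent neighbour on the opposite strand, because their transcripts share most of their sequence and their reads are hard to separate. The FAM225A window is chr9:113112646-113112945 on the plus strand and that of FAM225B chr9:113111628-113111927 on the minus strand; each holds 250 bases before the start and 50 after it, 5′ to 3′, and the capitals mark the 54 bases at which both windows end and which they share exactly.
FAM225A: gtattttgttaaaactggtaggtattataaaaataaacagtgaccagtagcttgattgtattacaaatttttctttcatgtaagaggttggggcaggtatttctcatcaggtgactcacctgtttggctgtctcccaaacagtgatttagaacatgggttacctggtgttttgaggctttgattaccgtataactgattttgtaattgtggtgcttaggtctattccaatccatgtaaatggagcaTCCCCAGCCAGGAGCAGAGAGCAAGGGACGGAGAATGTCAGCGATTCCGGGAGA
FAM225B: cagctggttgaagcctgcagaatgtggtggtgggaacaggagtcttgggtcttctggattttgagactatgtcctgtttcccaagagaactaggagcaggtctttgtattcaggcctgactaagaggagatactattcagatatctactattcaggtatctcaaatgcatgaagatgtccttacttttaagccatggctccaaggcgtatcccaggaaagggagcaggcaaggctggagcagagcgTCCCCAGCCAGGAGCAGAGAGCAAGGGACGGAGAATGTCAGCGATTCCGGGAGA
Ahead of those 54 bases only 26.4% of the aligned positions were equal, so the windows become alike a few bases before the start.

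For the other genes the sequence before the start is shown, with CG dinucleotides, the sites of DNA methylation, in capitals. The outer NEDD9 window is chr6:11382349-11382598 and the inner chr6:11232669-11232918, both on the minus strand; SMIM10 is chrX:134990741-134990990 on the plus strand, and LINC01978, with 50 bases after the start, is chr17:79919107-79919406 on the plus strand.
NEDD9 outer start: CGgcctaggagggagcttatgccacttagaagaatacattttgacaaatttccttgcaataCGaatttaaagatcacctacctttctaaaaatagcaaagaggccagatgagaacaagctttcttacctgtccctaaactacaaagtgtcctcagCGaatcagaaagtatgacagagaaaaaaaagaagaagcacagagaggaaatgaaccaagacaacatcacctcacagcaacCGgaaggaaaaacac
NEDD9 inner start: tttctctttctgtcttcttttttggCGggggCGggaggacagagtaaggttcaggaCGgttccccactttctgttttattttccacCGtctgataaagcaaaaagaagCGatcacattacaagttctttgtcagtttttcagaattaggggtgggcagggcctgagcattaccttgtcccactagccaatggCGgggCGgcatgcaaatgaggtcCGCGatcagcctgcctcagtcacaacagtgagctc
SMIM10: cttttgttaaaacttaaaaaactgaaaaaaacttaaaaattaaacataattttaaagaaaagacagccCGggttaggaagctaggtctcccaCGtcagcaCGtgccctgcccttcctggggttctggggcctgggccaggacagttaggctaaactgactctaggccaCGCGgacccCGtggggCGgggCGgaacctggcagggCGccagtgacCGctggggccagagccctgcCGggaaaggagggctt
LINC01978: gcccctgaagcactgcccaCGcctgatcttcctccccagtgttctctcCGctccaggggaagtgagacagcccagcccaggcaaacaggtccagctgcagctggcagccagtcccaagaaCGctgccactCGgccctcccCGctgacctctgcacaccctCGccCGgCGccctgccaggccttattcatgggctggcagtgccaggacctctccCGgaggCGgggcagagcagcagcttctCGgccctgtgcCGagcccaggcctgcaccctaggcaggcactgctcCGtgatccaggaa
In the 250 bases before the start, SMIM10 and LINC01978 had 11 CG dinucleotides each, equal to the median of 34943 such windows over all genes, the outer NEDD9 start had 4, the inner 9 and FAM225A 1. Of 4 short motifs searched on both strands, GGGCGG (found in 42.5% of all windows) occurred at 2 places in SMIM10 and at 2 places in the inner NEDD9 window. CCAAT (32%) occurred in the inner NEDD9 window and in FAM225A. TATAAA (10.8%) and TGANTCA (6.6%) occurred in FAM225A only. No motif of the 4 was shared by all 4 genes, and a match describes letters, not binding; GGGCGG holds a CG dinucleotide itself.

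In untreated cells the lines were far apart for every gene, as the choice of the genes required. NEDD9 had 10, 1 and 1 raw counts in the 3 HCT116 samples and 1624, 1540 and 1456 in the 3 HCT116 oxpl-R samples, which gave means of 3.94 ± 5.07 and 1665 ± 209.6 normalized counts (SD, n = 3). IL13RA2 had 1, 0 and 1 counts against 260, 162 and 406. FAM225A had 0 counts in all 3 HCT116 samples and 102, 120 and 97 in HCT116 oxpl-R. Thus NEDD9 and FAM225A were even between the resistant replicates, while IL13RA2 varied, its highest sample being well above its lowest. LINC01978 had 0 counts in all 3 HCT116 samples and 20, 40 and 48 in HCT116 oxpl-R. SMIM10 had 0, 1.0 and 0 length-scaled counts against 578.6, 610.0 and 504.9. The ratio of the lines was 422.5 for NEDD9, 444.3 for IL13RA2 (95% counting interval from 122.6) and 1856 for SMIM10 (from 332.7), and FAM225A and LINC01978 were at least 38-fold and 12.7-fold higher, against 3 counts per sample. In the fits without the first HCT116 replicate, which held 10 of the 12 NEDD9 counts, the log2 fold change of NEDD9 went from 8.66 to 10.52, and that of SMIM10 from 10.38 to 12.20 without the second. The SMIM10 fit then had 0 counts in HCT116, so its size of 12.20 depends on the prior count, a small value added in the fit, and is no bound. Intervals from 1 to 3 counts over a group and bounds against 3 counts per sample are limits of different kinds and cannot be ranked against each other. LINC01978 was the least abundant, and of both bounds its own was the lower.

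Per kilobase of exon the order of the untreated HCT116 oxpl-R levels was different. All 5 genes were read from the length-scaled table for it. The length was that of all annotated exons of a gene merged, from 1.483 kb for SMIM10 to 10.359 kb for NEDD9. A gene read mainly from shorter transcripts would lie higher, so the order depends on this length. Which transcripts were used was not tested. SMIM10 led with 12.4 ± 1.60 CPM per kilobase (SD, n = 3; CPM, counts scaled to a common library total), followed by IL13RA2 with 5.78 ± 3.30 and NEDD9 with 4.64 ± 0.717. LINC01978 had 0.549 ± 0.336 and FAM225A 0.450 ± 0.000955 on this scale. IL13RA2 and NEDD9 did not differ beyond their spread, nor did LINC01978 and FAM225A, whereas SMIM10 stood above and the long non-coding RNAs below. In the count table, which lacks SMIM10, IL13RA2 had 6.23 ± 2.73, NEDD9 5.46 ± 0.742, FAM225A 0.633 ± 0.0627 and LINC01978 0.521 ± 0.183 CPM per kilobase, so the order of FAM225A and LINC01978 turned with the table.

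**Figure D1:**
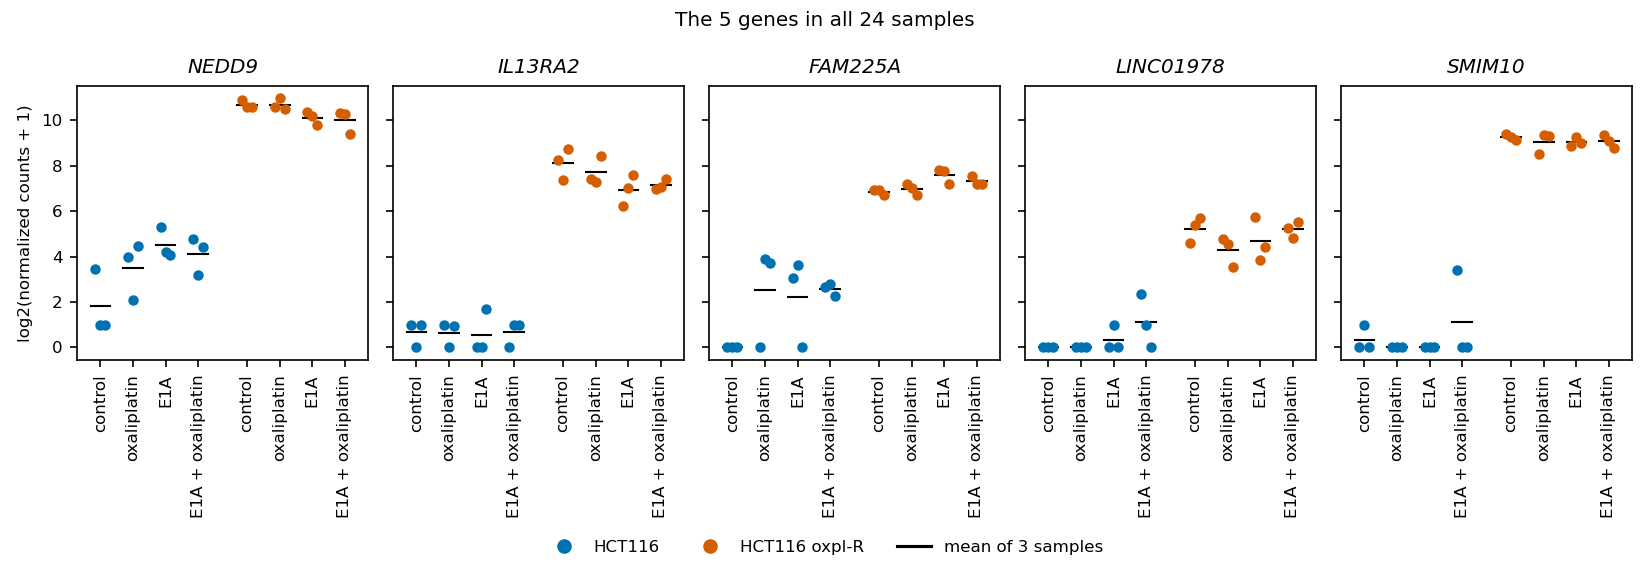
Level of each gene in all 24 samples, as log2(normalized counts + 1) on the y axis, by line and treatment on the x axis; points are samples and lines are means of 3. Every HCT116 oxpl-R sample lies above every HCT116 sample in all 5 panels, and LINC01978 comes closest, with 10.6 normalized counts in its lowest HCT116 oxpl-R sample and 4.1 in its highest HCT116 sample.

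The treated groups, samples other than the untreated ones that set the contrast, address whether it holds under oxaliplatin and under E1A; earlier results of these groups too were known when the genes were chosen. All 5 genes were higher in HCT116 oxpl-R with oxaliplatin, with E1A and with both (edgeR quasi-likelihood test, adjusted p below 0.05), and their 3 resistant samples lay above the 3 HCT116 samples in each comparison. Of all genes tested in the count table, 9.77%, 10.6% and 10.1% were called higher in these comparisons, and 19%, 15.6% and 19.1% had all 3 resistant samples on top. The treated cells come from the same 2 lines, so these comparisons repeat the contrast in other samples and not in other lines.

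NEDD9, the scaffold gene, was the most abundant in raw counts. With oxaliplatin it had 14, 3 and 23 counts in HCT116 and 1552, 1794 and 1224 in HCT116 oxpl-R, a log2 fold change of 6.87 (SE 0.491, edgeR adjusted p = 3.25e-06). With E1A it had 37, 17 and 14 counts against 1533, 1040 and 952, a log2 fold change of 5.65 (edgeR adjusted p = 8.71e-07). With both it had 26, 8 and 21 counts against 1496, 1303 and 868, a log2 fold change of 5.84 (edgeR adjusted p = 1.68e-07). The ratio of the means was 127.5 with oxaliplatin, 47.1 with E1A and 57.7 with both. The untreated ratio, 422.5, was taken on the samples in which the gene was chosen for its low level and is no reference for these.

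IL13RA2, the interleukin-13 receptor chain, never had more than 2 counts in any of the 12 HCT116 samples. With oxaliplatin it had 1, 0 and 1 counts in HCT116 and 169.1, 140 and 295 in HCT116 oxpl-R, a ratio of 327.2 (95% counting interval from 90.2, edgeR adjusted p = 7.24e-06). With E1A it had 0, 0 and 2 counts against 86, 114 and 203, a ratio of 182.1 (from 50.1, edgeR adjusted p = 3.99e-05). Without the third HCT116 replicate the fitted log2 fold change went from 7.41 to 10.12 (edgeR adjusted p = 0.00256). That fit had 0 counts in HCT116, so 10.12 depends on the prior count and is no bound. With both IL13RA2 had 0, 1 and 1 counts against 146, 140 and 217, a ratio of 214.5 (from 59.1, edgeR adjusted p = 1.97e-07). The lines did not come near each other in any treatment, and the intervals cover counting error only. Within HCT116 oxpl-R the third replicate was the highest of its group in all 4 groups, with 427.6, 346.2, 189.1 and 169.0 normalized counts untreated, with oxaliplatin, with E1A and with both.

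SMIM10, the small membrane protein gene, had a coefficient of variation of 17.6% over the 12 HCT116 oxpl-R samples. It was 27.4% for NEDD9, 27.3% for FAM225A, 45.3% for LINC01978 and 52.8% for IL13RA2. These values pool treatments whose means differ. Untreated, SMIM10 varied more for its mean (615.5 ± 65.75 normalized counts) than FAM225A did (114.3 ± 10.57, SD, n = 3). The same held with oxaliplatin and with both, and not with E1A. With oxaliplatin SMIM10 had 0 length-scaled counts in all 3 HCT116 samples and 378.7, 583.0 and 510.3 in HCT116 oxpl-R, at least 177.6-fold higher (edgeR adjusted p = 6.99e-06). With E1A it again had 0 in all 3 HCT116 samples, against 545.1, 565.2 and 523.0, at least 173.7-fold higher (edgeR adjusted p = 7.02e-08). With both it had 8.9, 0 and 0 in HCT116 against 750.2, 573.6 and 576.2, a ratio of 172.2 and a log2 fold change of 7.43 (edgeR adjusted p = 4.03e-05). Of all genes tested there, 10.7%, 8.44% and 7.45% were called higher in these comparisons, and in 18.6%, 17.5% and 17.9% all 3 resistant samples were on top. The 8.9 counts of the first HCT116 replicate with both treatments were the only value above 1.0 among the 12 HCT116 samples. Without that library the fitted log2 fold change was 12.23 (edgeR adjusted p = 1.67e-06). HCT116 then had 0 counts, so the size of 12.23 depends on the prior count and is no bound.

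LINC01978 had fewer counts than FAM225A in every HCT116 oxpl-R group. With oxaliplatin it had 0 counts in all 3 HCT116 samples and 26, 20 and 9 in HCT116 oxpl-R, at least 6.47-fold higher (edgeR adjusted p = 0.00251). With E1A it had 0, 1 and 0 counts against 61, 12 and 22, a ratio of 85.9 (95% counting interval from 15, edgeR adjusted p = 0.00164). The fitted log2 fold change went from 6.00 to 7.88 without the second HCT116 replicate (edgeR adjusted p = 0.0042). HCT116 then had 0 counts, so the size of 7.88 depends on the prior count and is no bound. Without the first HCT116 oxpl-R replicate the log2 fold change was 5.21 (edgeR adjusted p = 0.00488). With both LINC01978 had 4, 1 and 0 counts against 44, 29 and 57, a ratio of 21.5 and a log2 fold change of 4.35 (edgeR adjusted p = 0.000988), or 5.91 without the first HCT116 replicate (0.000171). The difference with both treatments was not called in the length-scaled table, where the log2 fold change was 2.83 (edgeR adjusted p = 0.0764). LINC01978 overlaps an antisense transcript, LINC01979, which holds 21.5% of its 31-base words on the opposite strand. Whether the counting used strand is not given in the sources used here, so part of the reads could belong to either. LINC01979 itself did not pass the test between the lines, with 5.57 normalized counts in untreated HCT116 oxpl-R and 7.74 in HCT116 (log2 fold change -0.44, edgeR adjusted p = 0.778).

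FAM225A had counts assigned to it in treated HCT116 cells as well. With oxaliplatin it had 0, 13 and 13 counts in HCT116 and 145, 117 and 88 in HCT116 oxpl-R, a log2 fold change of 3.76 (edgeR adjusted p = 0.00173, and 0.0577 by limma with a pseudocount of 0.1). With E1A it had 7, 11 and 0 counts against 266, 195 and 157, a log2 fold change of 5.05 (edgeR adjusted p = 9.01e-05, and 0.0901 by limma with a pseudocount of 0.1), or 5.77 without the second HCT116 replicate. With both it had 5.2, 6 and 3.8 counts against 216, 154 and 188, a log2 fold change of 4.96 (edgeR adjusted p = 3.68e-07). Of the 31-base words of FAM225A, 90.8% (5569 of 6131) also occur in FAM225B, whose gene body lies 1.5 kb away, and 69.7% of those of FAM225B occur in FAM225A. FAM225B had 0 counts in all 12 HCT116 oxpl-R samples. In HCT116 the reads were assigned to either gene: the first oxaliplatin replicate had 23 counts for FAM225B and 0 for FAM225A, and the other two had 13 counts each for FAM225A and 0 for FAM225B. With E1A the third replicate had 9 counts for FAM225B and 0 for FAM225A. Whether the HCT116 reads arose from FAM225A, from FAM225B or from both was not tested.

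Summed over FAM225A and FAM225B, HCT116 cells had 3, 0 and 1 counts untreated, 23, 13 and 13 with oxaliplatin, 7, 11 and 9 with E1A and 9, 6 and 13 with both. On this sum the lines differed by a log2 fold change of 2.83 with oxaliplatin (edgeR adjusted p = 0.000417), 4.45 with E1A (edgeR adjusted p = 3.08e-06) and 4.07 with both (edgeR adjusted p = 2.33e-06). The sum, which was added after the data were seen, gave the same direction and call in each of these comparisons, with a smaller difference than FAM225A alone.

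**Figure D2:**
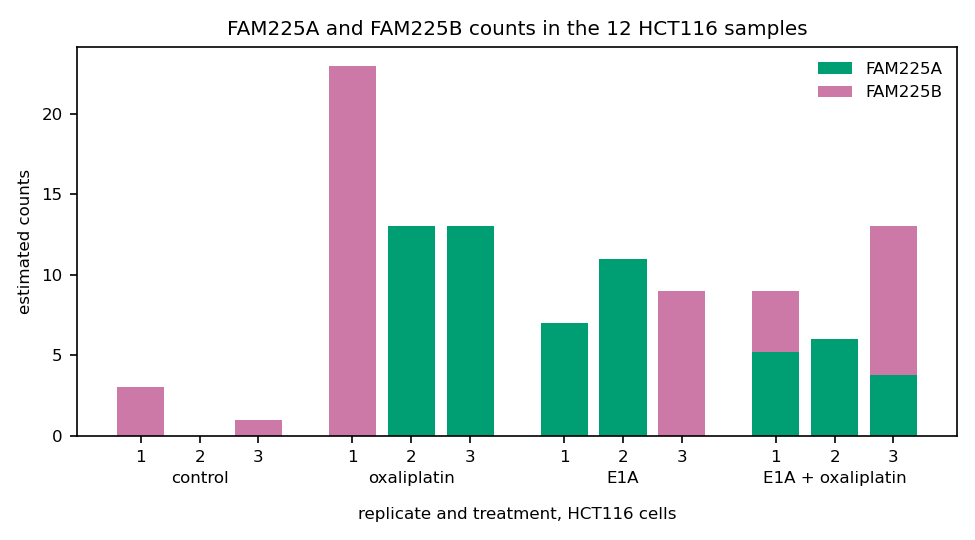
Estimated counts of FAM225A and FAM225B, stacked on the y axis, in each of the 12 HCT116 samples, with replicate number and treatment on the x axis. Most bars have a single colour, and the sum lies between 6 and 23 in the 9 treated samples and between 0 and 3 in the 3 untreated samples.

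None of the 5 genes passed the test for oxaliplatin in HCT116 oxpl-R, where 4.12% of all genes in the count table and 4.28% in the second did. In the same cells all 6 damage-response genes of a list rose, among them CDKN1A, which encodes the cell cycle inhibitor p21, with a log2 fold change of 2.88 (edgeR adjusted p = 4.8e-05). NEDD9 had a mean of 1663 ± 293.5 normalized counts with oxaliplatin and 1665 ± 209.6 without (SD, n = 3), a log2 fold change of 0.00 with a 95% interval from -0.38 to 0.38. For SMIM10 the interval ran from -0.65 to 0.32 and for FAM225A from -0.35 to 0.66. IL13RA2 (log2 fold change -0.42) and LINC01978 (-0.95) had wider intervals, from -1.17 to 0.34 and from -1.89 to 0.00. These comparisons use the 3 untreated HCT116 oxpl-R samples on which the genes were chosen. With E1A in both arms, which avoids those samples, the log2 fold changes for oxaliplatin lay between -0.33 for FAM225A and 0.32 for LINC01978 (0.01 to 1.04 with 1 sample left out) and none passed the test, where 2.06% of all genes did (1.96% in the second table); the replicate number paired the samples there, and with it as a block the genes called in the count table went from 357 to 1766, with none of the 4 genes it holds among them, and SMIM10 did not pass in the second table (edgeR adjusted p = 0.988).

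None of the 5 genes passed the test for E1A in HCT116 oxpl-R either, where 0.0755% of all genes did without oxaliplatin and 0.638% with it in both arms (0.0593% and 0.634% of those in the second table). NEDD9 had 1299, 1165 and 886.9 normalized counts with E1A and 1906, 1554 and 1533 without, a log2 fold change of -0.58 (SE 0.169, 95% interval -0.91 to -0.25, edgeR adjusted p = 0.576). With oxaliplatin in both arms it had 1283, 1234 and 676.0 with E1A and 1557, 1994 and 1436 without, a log2 fold change of -0.64 (SE 0.258, 95% interval -1.14 to -0.13, edgeR adjusted p = 0.469). NEDD9 had 676.0 to 1299 normalized counts in the 6 samples with E1A and 1436 to 1994 in the 6 without. How many of all genes separate in this way was not counted, so nothing is read from it. In 1 fit of the 12 HCT116 oxpl-R samples, added after the data were seen, the log2 fold change of NEDD9 with E1A was -0.61 (SE 0.159, edgeR adjusted p = 0.0572), which missed the threshold, and it too includes the untreated samples; 1.71% of all genes passed it (1.46% in the second table).

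FAM225A had 225.4, 218.5 and 146.3 normalized counts with E1A and 119.7, 121.1 and 102.2 without, a log2 fold change of 0.78 (SE 0.223, edgeR adjusted p = 0.548). With oxaliplatin in both arms it had 185.3, 145.9 and 146.4 with E1A and 145.5, 130.1 and 103.3 without, a log2 fold change of 0.34 (SE 0.283, edgeR adjusted p = 0.79). In the second setting the lowest value with E1A was 145.9 and the highest without it was 145.5. For FAM225A, too, the share of all genes that separate was not counted, and nothing is read from it. Over both settings the log2 fold change was 0.56 for FAM225A (SE 0.175, edgeR adjusted p = 0.137) and -0.92 for IL13RA2 (SE 0.274, edgeR adjusted p = 0.111). IL13RA2 overlapped between samples with and without E1A, with 72.9 to 189.1 normalized counts in the 6 samples with E1A and 155.6 to 427.6 in the 6 without. SMIM10 had a log2 fold change of -0.11 with a 95% interval from -0.44 to 0.22, and LINC01978 one of 0.22 with an interval from -0.51 to 0.95.

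**Figure D3:**
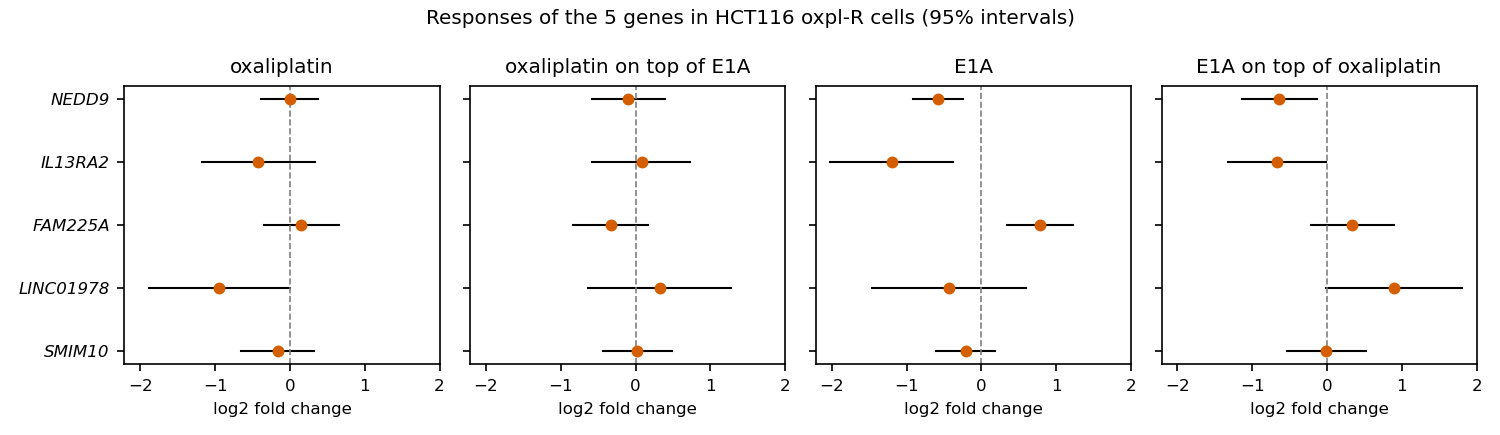
Log2 fold change (x axis) of each of the 5 genes (y axis) for 4 treatment comparisons within HCT116 oxpl-R, with 3 samples per group; points are edgeR estimates and lines 95% intervals. NEDD9 lies at 0.00 with oxaliplatin and at -0.58 and -0.64 with E1A, and none of the 20 estimates passed the test over all genes.

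In HCT116, NEDD9 had 10, 1 and 1 counts untreated and 37, 17 and 14 with E1A, a log2 fold change of 2.48 that passed the test (SE 0.723, edgeR adjusted p = 0.0297), as did 9.5% of all genes. The untreated samples are those in which the genes were chosen for their low levels, so a call against them is not independent of the choice, here and for FAM225A. This call was lost without the second or the third untreated replicate (edgeR adjusted p = 0.0692 and 0.116) and without the first E1A replicate (0.152), and in other fits of the same samples. With oxaliplatin NEDD9 had 14, 3 and 23 counts, a log2 fold change of 1.77 that did not pass the test (SE 0.992, edgeR adjusted p = 0.246). This value ranged from 1.19 to 3.62 with 1 sample left out and was 0.60 with both E1A levels in 1 fit. With oxaliplatin in both arms, which avoids the untreated samples, the log2 fold change of NEDD9 with E1A was 0.48 (SE 0.712, 95% interval -0.92 to 1.87, edgeR adjusted p = 1), where 0.0246% of all genes passed the test. With E1A in both arms that of NEDD9 with oxaliplatin was -0.27 (SE 0.537, 95% interval -1.32 to 0.78, edgeR adjusted p = 0.788), where 10% of all genes passed.

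FAM225A had 0 counts in untreated HCT116, 0, 13 and 13 with oxaliplatin and 7, 11 and 0 with E1A, and neither response passed the test (edgeR adjusted p = 0.0614 and 0.0617). Both calls depended on single libraries: the adjusted p was 0.0235 and 0.0406 without the first or the third oxaliplatin replicate and 0.0294 without the third E1A replicate. The sum of FAM225A and FAM225B passed it with oxaliplatin, with a log2 fold change of 3.59 (SE 0.897, edgeR adjusted p = 0.0176), where 23.3% of all genes passed, and not with E1A (2.68, SE 1.02, edgeR adjusted p = 0.11). Without the untreated samples the log2 fold change of FAM225A was -0.77 for E1A on top of oxaliplatin (SE 1.05, edgeR adjusted p = 1) and -0.20 for oxaliplatin on top of E1A (SE 1.00, edgeR adjusted p = 0.924). IL13RA2 stayed at 2 counts or fewer in every HCT116 sample. LINC01978 exceeded 3 counts in 1 HCT116 sample (4 counts) and SMIM10 in 1 (8.9), and both values came from the same library, the first replicate with both treatments.

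Few genes of the series had a strict on and off pattern over all 24 samples, here at least 10 counts in all 12 samples of a line and at most 3 in all 12 of the other. Of 19459 genes with a count in the count table, 7 (0.036%) were on in HCT116 oxpl-R by this measure and 6 (0.0308%) in HCT116. Those on in HCT116 were RPS4Y1, KDM5D and EIF1AY on the Y chromosome, and LYL1, HTR3B and SERPING1 elsewhere. The authors report that much of the HCT116 oxpl-R population had lost the Y chromosome. Of the 5 genes IL13RA2 alone met the measure, with 86 to 406 counts against at most 2. NEDD9 and FAM225A failed through their counts in HCT116, up to 37 and 13, LINC01978 through its lowest HCT116 oxpl-R sample at 9 and an HCT116 sample at 4, and SMIM10 through the 8.9 counts of a single HCT116 sample. The others on in HCT116 oxpl-R were BMP2, a bone morphogenetic protein ligand (46 to 174 counts against 0), KMO, the kynurenine 3-monooxygenase of tryptophan breakdown (18 to 90 against at most 2), RARRES2, which encodes the chemoattractant chemerin (19 to 64 against at most 2), and the non-coding GLIS3-AS1, CLMAT3 and LINC03095. In the second table KMO did not meet the measure and TFF2, a trefoil peptide of gastric mucus, did, with 285.5 to 583.2 length-scaled counts against at most 1.2, and 0.0306% of the genes there met the measure. In a looser measure, all 12 HCT116 oxpl-R samples above all 12 HCT116 samples, all 5 genes qualified, as did 3.07% of the genes in the count table and 2.8% in the second; both measures include the 6 untreated samples on which the genes were chosen, so nothing is read from this share.

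Neighbouring genes were read beside the 5. Of 30 neighbours, 3 on each side of each gene among those in the tables, 12 were at 3 counts or fewer in every untreated sample, 2 were higher and 3 lower in untreated HCT116 oxpl-R (edgeR adjusted p below 0.05, called in 28.3% of all genes), and the others did not pass the test. Of the 6 neighbours of IL13RA2, HSPA8P7, HTR2C, LRCH2, RBMXL3 and LUZP4 had means of at most 2.23 normalized counts in untreated cells of either line. The farthest, AMOT, 2163.1 kb away, had 278.6 in HCT116 oxpl-R and 272.7 in HCT116 (log2 fold change 0.04, edgeR adjusted p = 0.877). FAM225A had active genes on one side, and SLC31A2, which encodes a copper transporter and lies 31 kb away, had 449.6 normalized counts in untreated HCT116 oxpl-R and 364.2 in HCT116 (log2 fold change 0.30, edgeR adjusted p = 0.203). With oxaliplatin SLC31A2 was higher in HCT116 oxpl-R, with 899.7 against 379.4 (log2 fold change 1.22, edgeR adjusted p = 0.00417). MOSPD1, 75.7 kb from SMIM10, was higher untreated (1292 against 655.0, log2 fold change 0.99, edgeR adjusted p = 0.000317) and with oxaliplatin (2128 against 559.9, log2 fold change 1.84, edgeR adjusted p = 0.00412). It was also higher with both (1.40, edgeR adjusted p = 0.0123) and did not pass the test with E1A (0.94, edgeR adjusted p = 0.126). HIVEP1, 626.4 kb from NEDD9, was lower untreated, with 158.9 against 376.1 (log2 fold change -1.23, edgeR adjusted p = 0.000107). It was also lower with oxaliplatin (-1.36, edgeR adjusted p = 0.0114). HIVEP1 did not pass the test with E1A (-0.74, edgeR adjusted p = 0.078) or with both (-0.45, edgeR adjusted p = 0.348). SMIM13, the nearest neighbour of NEDD9, had 1264 against 1023 normalized counts (log2 fold change 0.31, edgeR adjusted p = 0.145).

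Of 29 tested genes in a list of 30 for the CAS family and its partners, 3 were higher and 7 lower in untreated HCT116 oxpl-R, where 28.3% of all genes were called in either direction, and the median log2 fold change was -0.18 (0.08 over all genes tested). With oxaliplatin 5 were higher and 4 lower, with E1A 2 and 5, and with both 4 and 2, where 20.7%, 17.7% and 18.5% of all genes were called in either direction. The genes higher untreated were BCAR3, SH2D3A and DOCK3, and those lower were PTK2, LYN, ABL1, RAPGEF1, DOCK1, SMAD3 and GRB2. BCAR3, an adaptor that binds CAS proteins, had 2421 ± 315.9 normalized counts in untreated HCT116 oxpl-R and 554.8 ± 10.1 in HCT116 (log2 fold change 2.13, edgeR adjusted p = 1.24e-07), and its relative SH2D3A had 4580 ± 204.6 against 1807 ± 160.1 (edgeR adjusted p = 3.08e-06). Both were also higher with oxaliplatin, with E1A and with both, where BCAR3 had log2 fold changes of 1.46, 1.51 and 1.21. ABL1, a tyrosine kinase, was lower untreated, with 1804 ± 74.9 against 3301 ± 276.1 (log2 fold change -0.86, edgeR adjusted p = 6.45e-05). AURKA, the mitotic kinase that NEDD9 binds, did not pass the test untreated (2922 against 3285, edgeR adjusted p = 0.334), and it fell with oxaliplatin in HCT116 oxpl-R to 739.0 ± 264.4 (log2 fold change -1.98, edgeR adjusted p = 0.000543). Of the 29 genes tested for that response, 2 were higher and 1 lower, beside 4.12% of all genes called in either direction. The paralogs of NEDD9 did not pass the test between the untreated lines: BCAR1 had 2204 ± 212.0 normalized counts against 2816 ± 351.5 (log2 fold change -0.34, edgeR adjusted p = 0.0509) and CASS4 9.32 ± 6.36 against 3.27 ± 4.08 (edgeR adjusted p = 0.364).

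For IL13RA2 the list of interleukin-13 and interleukin-4 receptor signalling held 22 genes, of which 20 were tested untreated, 1 of them at 3 counts or fewer; 3 were higher and 6 lower in HCT116 oxpl-R, with a median log2 fold change of -0.21 (0.08 over all genes tested) and 28.3% of all genes called. With oxaliplatin 3 were higher and 8 lower of 20, with E1A 1 and 6 of 21, and with both 3 and 3 of 21, beside 20.7%, 17.7% and 18.5% of all genes. IL13RA1, the paralog that pairs with IL4R to signal, had 1210 ± 83.1 normalized counts in untreated HCT116 oxpl-R and 1443 ± 50.03 in HCT116 (log2 fold change -0.25, edgeR adjusted p = 0.142). IL4R was lower, with 1297 ± 13.4 against 1935 ± 162.5 (log2 fold change -0.57, edgeR adjusted p = 0.00171), and so was the receptor kinase JAK1, with 1151 ± 34.9 against 2629 ± 91.8 (log2 fold change -1.18, edgeR adjusted p = 4.62e-06). STAT6, the transcription factor of the pathway, did not pass the test (2201 against 2307, edgeR adjusted p = 0.71). The adaptor IRS1 was much lower (998.0 ± 198.4 against 7171 ± 203.0, log2 fold change -2.84, edgeR adjusted p = 3.05e-08). CCL26, a chemokine induced by interleukin-13, was higher at a low level (48.7 ± 16.6 against 3.66 ± 2.02, log2 fold change 3.69, edgeR adjusted p = 0.000194) and was also higher with oxaliplatin, with E1A and with both. ALOX15, another gene induced by interleukin-13, was lower (2.86 ± 1.18 against 31.01 ± 9.50, log2 fold change -3.37, edgeR adjusted p = 0.000819).

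Other cancer/testis antigens were read beside IL13RA2. Of 45 listed, 41 were in the tables and 22 were tested untreated, 11 of them at 3 counts or fewer in both groups; 2 were higher in HCT116 oxpl-R, CT45A1 and DPPA2, and none lower, beside 28.3% of all genes called. With oxaliplatin 2 of 23 were higher and 1 lower (median log2 fold change -1.84, against 0.04 over all genes tested), with E1A 1 and 1 of 26, and with both 2 and 0 of 28, beside 20.7%, 17.7% and 18.5% of all genes. Of these 10, 12 and 10 were at 3 counts or fewer, so the medians rest in part on such genes. MAGEB2, a melanoma antigen family member, was abundant in both lines, with 8654 normalized counts in untreated HCT116 oxpl-R and 7148 in HCT116 (edgeR adjusted p = 0.0641), and was higher with oxaliplatin (13040 against 5628, log2 fold change 1.13, edgeR adjusted p = 0.0064) and with both. ACTL8, an actin-like gene, was lower with oxaliplatin and with E1A. DPPA2, a gene of pluripotent cells, had 20.7 normalized counts in HCT116 oxpl-R and 2.96 in HCT116 (log2 fold change 2.74, edgeR adjusted p = 0.0161) and was also called with oxaliplatin, with E1A and with both. CT45A1 averaged 5.85 against 0. Among the genes similar in name to SMIM10, SMIM10L1 was higher untreated, with 341.4 ± 46.7 against 231.1 ± 8.78 (log2 fold change 0.56, edgeR adjusted p = 0.0442), and SMIM10L2A with oxaliplatin, with 390.8 ± 18.7 against 118.9 ± 6.77 (log2 fold change 1.69, edgeR adjusted p = 0.00145); both were active in HCT116. SMIM10 shared 2.0% of its 31-base words with SMIM10L2A, 1.4% with SMIM10L2B and 0 with SMIM10L1.

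Markers of other cell types were summed in each sample. The 4 endothelial markers summed to 2 to 27 normalized counts per sample in HCT116 oxpl-R and 2 to 17 in HCT116, with PECAM1 the most abundant and CLDN5 at 3 counts or fewer throughout. The 7 haematopoietic markers summed to 38 to 174 and 100 to 223, with CD68 the most abundant, PTPRC at 3 counts or fewer in every HCT116 sample and CD3E in every HCT116 oxpl-R sample. The 6 mesenchymal markers in the tables summed to 1247 to 2694 and 1126 to 1839, led by FN1 in HCT116 oxpl-R and COL1A1 in HCT116. Of them 2 were called higher in HCT116 oxpl-R untreated, with E1A and with both, and 0 with oxaliplatin, and none lower, beside 28.3%, 17.7%, 18.5% and 20.7% of all genes called in either direction; SNAI2, a transcription factor of mesenchymal cells, had 50.6 against 15.9 normalized counts untreated (edgeR adjusted p = 0.0163) and 156.6 against 30.3 with both (edgeR adjusted p = 0.0009). The 6 markers of embryonic kidney or neural cells summed to 400 to 726 and 443 to 861, led by PAX8 and PAX2; 1 of 6 was called higher untreated (PAX8), 0 of 6 with E1A, and 2 were called lower with oxaliplatin (of 3 tested) and with both (of 6), PAX2 and GFAP. Among the haematopoietic markers LYZ was higher (39.8 against 2.29, edgeR adjusted p = 0.00278) and CD68 lower (47.5 against 110.4, edgeR adjusted p = 0.0192) in untreated HCT116 oxpl-R. In that list 1 was also higher and 1 lower with oxaliplatin (of 5 tested) and with E1A (of 7), and none was called with both. Of the endothelial markers 1 was called higher with E1A (of 4 tested) and none in the other comparisons of the lines. Of the epithelial markers of the labelled cell type, 2 were called higher and 2 lower in untreated HCT116 oxpl-R (of 10 tested). With E1A 2 were higher and 1 lower, and with both 1 and 2 (of 11 tested each). With oxaliplatin none of 11 was called. The part of all these markers in the levels of the 5 genes was not tested, and in bulk RNA fewer cells with a transcript and less transcript per cell cannot be told apart.

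Over the 12 HCT116 oxpl-R samples, which share libraries and treatments, Pearson r of log2 levels between them ran from -0.66 for IL13RA2 with FAM225A to 0.39 for NEDD9 with SMIM10. The genes most like NEDD9 among 13474 compared were MAGI1 (r = 0.953), KLF6 (0.95) and FRMD3 (0.94). Those most like IL13RA2 were MALT1 (0.912), NRIP1 (0.906) and NAMPT (0.9), and those most like FAM225A were C7orf57 (0.923), BCL10-AS1 (0.91) and FAM131B (0.906). LINC01978 was nearest to PCDH19 (0.872), LINC01011 (0.863) and NSG1 (0.846), and SMIM10 to GOLM2 (0.953) and RNF2 (0.946). These are descriptions of 12 samples from 4 treatments.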

How the data were processed

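mRNA libraries of 24 samples were sequenced. The authors trimmed the reads with Trimmomatic, quantified them with Salmon 1.6.0 on GENCODE 47 transcripts of GRCh38, and deposited estimated counts per gene summed with tximport, without normalization. The count table ends at SETP6. The second deposited table, named TPM, sums to 28004261 to 42613322 per sample and followed the estimated counts (r = 0.999 on log2(value + 1)), so it was read as length-scaled estimated counts, another unit than planned, and used for genes up to TSC22D3; later genes were not analysed here. Between 15.93% and 30.39% of the values of the count table were not whole, and all values were rounded.

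Counts were compared with edgeR 4.0.16 (TMM, quasi-likelihood test, R 4.3.3) on the 6 samples of each of 12 comparisons, with Benjamini-Hochberg adjusted p-values across every gene that had a count, and a threshold of 0.05. Interactions of line and treatment used 12 samples. 95% intervals are estimate ± 1.96 SE, and those of ratios from 1 to 3 counts are exact (Clopper-Pearson). The former can be narrower than the quasi-likelihood test allows. For IL13RA2 with E1A on top of oxaliplatin in HCT116 oxpl-R the interval was -1.33 to -0.02, while that test gave an unadjusted p of 0.0582. Named genes were the 5 genes, the first 3 neighbours on each side, the genes most alike over 12 samples with a mean of at least 10 counts, and genes of the lists (1 gene so named is not reported here); genes, lists and rules were chosen with earlier results of these data known, and others were named after their values were seen. Positions (GENCODE 44, joined by symbol) were found for 32718 genes of the count table and 37473 of the second. Same-numbered samples deviated together in the line comparison with oxaliplatin (correlations of 0.131, 0.191 and 0.247) and for oxaliplatin on top of E1A in HCT116 oxpl-R (0.417, 0.477 and 0.521). Alternatives were RLE, DESeq2 1.42.0, filterByExpr, all 24 samples in 1 fit, the replicate block, each sample left out, the second table, limma 3.58.1 with a pseudocount of 1 or 0.1, and 3 added after the data were seen (FAM225A and FAM225B summed, the interactions, and both levels of the other treatment in 1 fit). The edgeR test was also run on simulated data for 2 comparisons. For the line difference with oxaliplatin it recovered 19% of 2-fold and 84% of 4-fold changes (14% and 80% in the second table). For E1A in HCT116 oxpl-R it recovered 43% and 86% (41% and 74%). Between 0.769% and 6.36% of its calls were false. Many changes of 2-fold or less could thus fail to pass the test. Tables and plots were made with Python 3.11.15, pandas 2.3.3, numpy 2.4.6 and matplotlib 3.10.9.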

Additional observations from a re-analysis of the deposited data

Results flagged for a closer look

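An interaction of line and oxaliplatin passed the test for FAM225A, but it subtracts the untreated groups on which the gene was chosen, so it is a description and not independent of the choice. The term, HCT116 oxpl-R minus HCT116, was -5.972 on the log2 scale (SE 1.46, edgeR adjusted p = 0.0427), and 2.44% of all genes passed this test. The estimate starts from 0 counts in all 3 untreated HCT116 samples, so its size depends on the prior count and is no bound. For FAM225A and FAM225B summed the term was -3.418 (SE 0.691, edgeR adjusted p = 0.0135). The sum went from 3, 0 and 1 counts untreated to 23, 13 and 13 with oxaliplatin in HCT116, and from 102, 120 and 97 to 145, 117 and 88 in HCT116 oxpl-R. For oxaliplatin on top of E1A, which avoids those groups, the term was -0.09 (SE 0.74, edgeR adjusted p = 1). The terms for E1A did not pass the test for FAM225A (edgeR adjusted p = 1) or for the sum (edgeR adjusted p = 1).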

How the results depend on the processing

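The 5 genes were higher in HCT116 oxpl-R with oxaliplatin, with E1A and with both under every alternative, and in each fit without 1 sample all 5 were called. Among the other alternatives 4 of these calls were lost, all of long non-coding RNAs at low counts. With limma and a pseudocount of 0.1 the log2 difference of FAM225A was 5.23 with oxaliplatin (adjusted p = 0.0577) and 5.32 with E1A (0.0901), and that of LINC01978 with both was 5.00 (0.0656). In the second table the latter was 2.83 (edgeR adjusted p = 0.0764).

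The call of NEDD9 with E1A in HCT116 missed the threshold with filterByExpr (log2 fold change 2.49), the second table (2.38), limma with a pseudocount of 1 (2.60) or 0.1 (3.11), the replicate block (2.78, edgeR adjusted p = 0.0923) and both oxaliplatin levels in 1 fit (1.40), and ranged from 1.98 to 4.35 with 1 sample left out. The response of FAM225A in HCT116 passed it with oxaliplatin under DESeq2 (5.60), all 24 samples in 1 fit (6.14) and the sum with FAM225B (3.59), and with E1A under RLE (5.59) and in the second table (7.14). With 1 sample left out it ranged from 5.69 to 6.73 with oxaliplatin and from 4.86 to 6.17 with E1A. Untreated HCT116 had 0 FAM225A counts in all 3 samples of the count table. The sizes of its responses there, other than that of the sum, are therefore no measured folds. The cause of these shifts was not tested.

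Other signs turned only for values that passed no test. NEDD9 with oxaliplatin in HCT116 oxpl-R was at -0.01 under RLE, filterByExpr and DESeq2, -0.00 with the replicate block and with all 24 samples, -0.04 in the second table and -0.03 under limma, and ran from -0.13 to 0.12 with 1 sample left out; SMIM10 ran from -0.31 to 0.04. For E1A on top of oxaliplatin there, SMIM10 was at 0.01 with the replicate block and 0.09 under limma, and ran from -0.23 to 0.12. For oxaliplatin on top of E1A there, IL13RA2 ran from -0.21 to 0.51, LINC01978 from 0.01 to 1.04, NEDD9 from -0.25 to 0.15 and SMIM10 from -0.12 to 0.17. In HCT116, FAM225A was at 0.71 and 1.73 under limma for E1A on top of oxaliplatin, and for oxaliplatin on top of E1A at 0.16 with the replicate block, 0.24 and 1.22 under limma and 0.05 as the sum, from -0.86 to 0.44 with 1 sample left out, where NEDD9 ran from -0.67 to 0.16. With both levels of the other treatment in 1 fit, LINC01978 with E1A was at 0.22 and FAM225A with oxaliplatin at -0.09 in HCT116 oxpl-R.

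The replicate block changed no other call of the 5 genes. It moved the genes called in the whole table from 692 to 1762 for oxaliplatin in HCT116 oxpl-R, from 13 to 22 for E1A, from 107 to 217 for E1A on top of oxaliplatin, and in HCT116 from 3759 to 2000 for oxaliplatin, from 1559 to 121 for E1A and from 4 to 0 for E1A on top of oxaliplatin. With all 24 samples in 1 fit the untreated line difference went from 4737 to 2747 genes and E1A in HCT116 to 84. Under DESeq2 the counts in HCT116 oxpl-R were 1088 for oxaliplatin, 72 for E1A, 184 for E1A on top of oxaliplatin and 593 for oxaliplatin on top of E1A. With 1 sample left out the genes called ran from 1407 (without the second HCT116 E1A replicate) to 4278 for the line difference with E1A, from 389 to 1013 for oxaliplatin and from 2 to 22 for E1A in HCT116 oxpl-R, from 199 to 1120 for oxaliplatin on top of E1A there, from 119 to 390 for E1A on top of oxaliplatin there, from 1877 to 3544 for the line difference with both, and in HCT116 from 1575 to 6997 for oxaliplatin, from 376 to 2305 for E1A and, for oxaliplatin on top of E1A, from 405 (without the second E1A replicate) to 4864 (without the first replicate with both). With at least 30 counts as on, 2 genes were on in HCT116 oxpl-R and 3 in HCT116; with 0 counts as off, 1 in each. Where a sample had 0 counts, a true level of up to 3 counts was possible at this depth.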
